A study of Mus musculus with 10 samples.

Results

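The genes described here are 10 components of the Notch pathway, read in mouse intestinal organoids with and without IκBα. They are the receptors Notch1, Notch2 and Notch3, the ligands Jag1, Jag2, Dll1 and Dll4, the coactivator Maml2 and the target genes Hes1 and Nrarp. They were taken by gene symbol from the annotation of the array's probe sets, and all 10 were found among the 19505 genes measured, each with 1 probe set. Intestinal organoids are small epithelia grown in culture from intestinal tissue. RNA from 10 organoid samples was put on 1 array each, with 5 samples of knockout (KO) organoids, in which IκBα is the targeted gene, and 5 of wild type (WT) organoids. All 10 samples carry the mark P6, which the labels do not define, and the sources used here give no strain, age or treatment and do not say how the gene was deleted. IκBα, the product of Nfkbia, holds NF-kB transcription factors in the cytoplasm. Nothing in the labels tells separate animals or cultures from repeats of one, so the p-values cover the spread between these samples alone, and that spread may be technical.

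Notch signalling passes between touching cells. A ligand of the Jagged or Delta-like family on one cell binds a Notch receptor on its neighbour, proteases then release the receptor's intracellular domain, and that domain enters the nucleus, joins the DNA-binding protein RBPJ and a Mastermind coactivator, and switches on genes such as Hes1. In the intestinal crypt, Delta-like ligands on secretory cells activate Notch in neighbouring stem and progenitor cells, where HES1 represses Atoh1, the factor that commits cells to the secretory lineage. Loss of Notch signalling turns crypt progenitors into secretory cells.

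Levels are the deposited log2 values, and a change is KO minus WT. Array medians over the gene probe sets lay between 6.53 and 6.67. The targeted gene Nfkbia changed by -4.13 (limma, adjusted p = 2.81e-08) and every KO array lay below every WT array. The Y-linked genes Eif2s3y, Uty and Kdm5d were also lower in every KO array, with changes of -5.20, -4.47 and -2.42, so KO and the lower Y-linked signal cannot be told apart in any change given here. Of 8 epithelial markers 3 rose, Krt18 by 1.43, Cdh1 by 0.45 and Krt8 by 0.43, and 3 fell, Cldn7 by 0.46 beside Cdx2 and Vil1. The adhesion genes Cdh1 and Epcam stood at 12.05 or more and 10.67 or more in all arrays, while Cdx2, the intestinal identity factor, fell by 2.16 to levels of 7.84 to 9.27 in KO from 10.28 to 11.40 in WT, and Vil1, a brush border gene, fell by 1.03. Control RNAs added during labelling and hybridisation also differed between the groups: 8 such probe sets had a median change of -0.52 and a most negative one of -0.85, while 63 ERCC control probe sets had a median change of -0.12 and ran from -0.55 to 0.22. Negative control probe sets, which match no mouse transcript, had medians of 4.30 to 5.10 in the 10 arrays.

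Notch receptors, ligands and targets did not move in one direction in the KO organoids. The receptors Notch2 and Notch3, both Jagged ligands and the coactivator Maml2 rose, the Delta-like ligands Dll1 and Dll4 and the target Nrarp fell, and Notch1 and Hes1 did not pass the test. In counts, 5 of the 10 genes rose, 3 fell and 2 did not pass (limma, adjusted p under 0.05). Over all 19572 probe sets with 1 gene, 26.7% passed, 15% higher and 11.7% lower in KO. The KO and WT values did not overlap for 6 of the 10 genes, against 21.4% of all probe sets. The 10 genes were named with earlier results of these data known, so their share above the background is not a finding about the pathway. The median size of change was 1.10 among them and 0.21 over all probe sets.

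**Figure D1:**
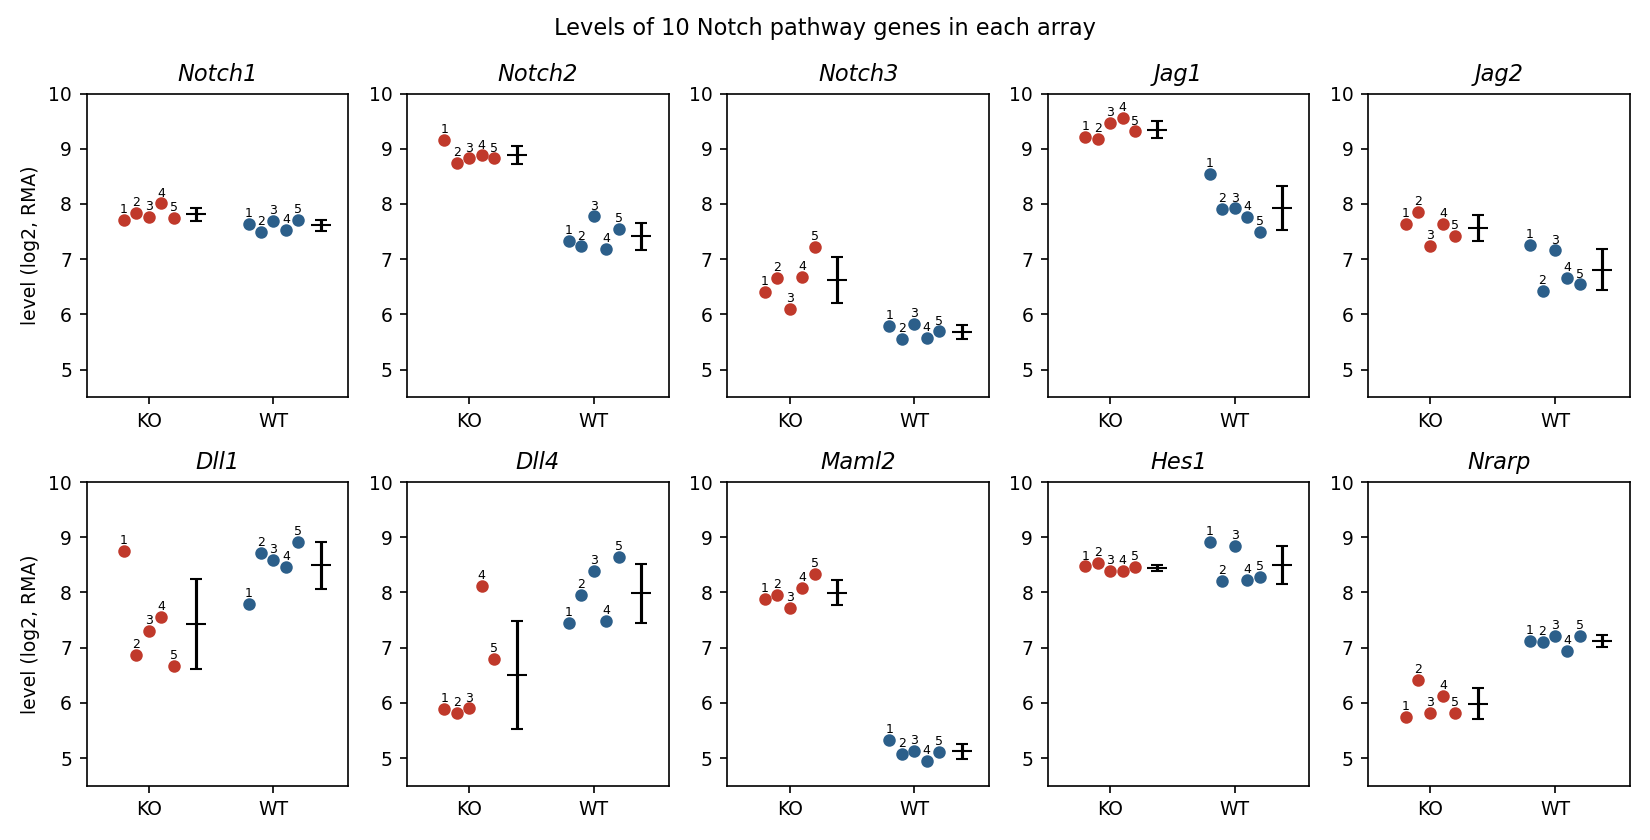
Level (log2) of each of the 10 genes in each array, with KO in red and WT in blue; digits are replicate numbers, and the bars beside the points are the mean and SD of 5 arrays. Maml2 separates the groups by the widest gap of these genes, Dll1 and Dll4 spread over more than 2 log2 units in KO, and Hes1 lies at the same height in both groups.

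**Figure D2:**
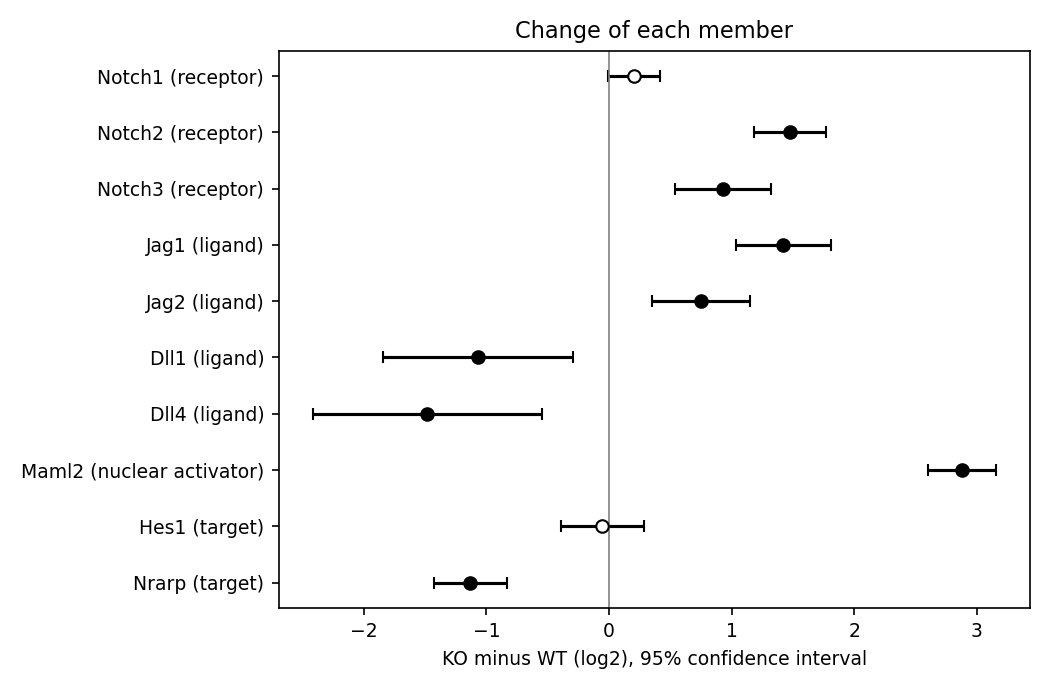
KO minus WT change (log2) of each gene with its 95% confidence interval from limma; filled circles passed at an adjusted p under 0.05 and open circles did not. Maml2 lies farthest to the right at 2.88 and Dll4 farthest to the left at -1.48, and the intervals of Notch1 and Hes1 cross 0.

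Stretches of promoter are shown for Notch2, which rose, and Nrarp, which fell, because their windows alone, of the genes here with a promoter in the table, held a match to the motif of NF-kB, the factor that IκBα restrains. The sequences come from RefSeq (GRCm38.p6), are the 250 bases before the gene's start, run 5′ to 3′ on the + strand, and lie at chr3:98013288-98013537 and chr2:25180508-25180757.
Notch2: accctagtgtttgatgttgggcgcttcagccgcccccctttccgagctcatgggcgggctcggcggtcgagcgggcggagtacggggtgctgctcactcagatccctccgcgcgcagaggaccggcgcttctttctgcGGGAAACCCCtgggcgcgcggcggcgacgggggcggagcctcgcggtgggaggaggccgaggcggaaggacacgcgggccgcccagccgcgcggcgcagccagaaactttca
Nrarp: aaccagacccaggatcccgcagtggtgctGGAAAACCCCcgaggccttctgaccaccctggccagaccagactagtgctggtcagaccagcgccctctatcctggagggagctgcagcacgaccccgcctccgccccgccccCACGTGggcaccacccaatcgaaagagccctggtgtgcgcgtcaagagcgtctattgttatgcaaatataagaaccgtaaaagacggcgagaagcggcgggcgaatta
Capitals in Notch2 mark the NF-kB match, whose first base lies 112 bases before the start. In Nrarp they mark an NF-kB match that begins 221 bases before the start and the E-box CACGTG, a sequence that HES and HEY proteins can bind, which begins 108 bases before it. Both strands were searched over windows of 300 bases, from 250 before the start to 50 after it, and 9 of the 10 genes, all but Hes1, matched 11 such windows by symbol. An NF-kB match was in 2 of these 11 windows and in 4.51% of all 32851 windows. The RBPJ core TGGGAA, the site of the Notch nuclear complex, was in 1 of the 11, at a second start of Maml2, and in 25.6% of all. The E-box was in 1 of the 11 and in 7.15% of all. No 2 of these motifs overlapped in a window of these genes. A match shows only that the letters are there.

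The receptors changed unequally. Notch2, one of the receptors found on crypt cells, stood at 9.17, 8.74, 8.82, 8.88 and 8.82 in KO replicates 1 to 5 and at 7.33, 7.23, 7.77, 7.19 and 7.54 in WT replicates 1 to 5. The lowest KO array lay 0.97 above the highest WT array. KO arrays averaged 8.89 ± 0.16 (SD, n = 5) and WT arrays 7.41 ± 0.24 (SD, n = 5), a rise of 1.47 (standard error, SE, 0.13), equal to 2.78-fold (limma, adjusted p = 6.35e-06). Notch3, a receptor best known from smooth muscle and pericytes, stood at 6.41, 6.67, 6.10, 6.68 and 7.23 in KO and at 5.79, 5.55, 5.82, 5.57 and 5.69 in WT. The KO arrays were all higher, but they spread over 1.13 log2 units, with replicate 5 highest and replicate 3 lowest. The rise was 0.93 (SE 0.18), equal to 1.91-fold (limma, adjusted p = 0.00212). No array carried Notch3 above the 95th percentile of its negative controls, which limits the reading of its size. That percentile ran from 7.17 to 7.77 over the arrays and lay above the array medians.

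Notch1, the receptor that crypt stem cells share with Notch2, stood at 7.71, 7.84, 7.76, 8.01 and 7.74 in KO and at 7.63, 7.50, 7.69, 7.53 and 7.70 in WT. The groups were separated by 0.0031, which is far less than the spread within either. The change of 0.20, with a 95% confidence interval from -0.0074 to 0.41, did not pass (limma, adjusted p = 0.152). The Notch2 minus Notch1 difference within an array averaged 1.07 ± 0.24 (SD, n = 5) over KO arrays and -0.20 ± 0.17 (SD, n = 5) over WT arrays. These differ by 1.27, so the 2 genes did not change alike (exact two-sided permutation test, adjusted over 6 pairs p = 0.0159; the unadjusted 0.00794 is the smallest that 5 against 5 arrays can give). Notch1 and Notch3 also changed unequally, by -0.73 (exact two-sided permutation test, adjusted p = 0.0159). For Notch2 against Notch3 the difference of 0.54 did not pass (exact two-sided permutation test, adjusted p = 0.0667); without KO replicate 5 it was 0.71 and passed (adjusted p = 0.0238). Notch4, the endothelial receptor, was not among the 10 genes and changed by -0.03 (limma, adjusted p = 0.902).

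Of the 4 ligands, both Jagged genes were higher and both Delta-like genes lower in KO. No test compared the families, and the calls of Dll1 and Dll4 depended on single arrays. Jag1, which binds Notch receptors in trans and is widely made in epithelia, stood at 9.22, 9.18, 9.47, 9.55 and 9.31 in KO and at 8.55, 7.91, 7.92, 7.76 and 7.49 in WT. All KO arrays were higher, and WT replicate 1 came closest. Jag1 rose by 1.42 (SE 0.18), equal to 2.68-fold (limma, adjusted p = 7.83e-05). Jag2, the other Jagged ligand, stood at 7.63, 7.86, 7.25, 7.64 and 7.43 in KO and at 7.26, 6.43, 7.16, 6.65 and 6.54 in WT. WT replicate 1 lay just above KO replicate 3, so the groups overlapped by 1 array each. Jag2 rose by 0.75 (SE 0.18), equal to 1.68-fold (limma, adjusted p = 0.00918), a size below the largest shift of the added control RNAs, and it did not pass against a 1.2-fold change (limma's treat, adjusted p = 0.0645). Within arrays, Jag1 rose more than Jag2 by 0.67 (exact two-sided permutation test, p = 0.0159, adjusted p = 0.0238). Jag1 lay above the 95th percentile of the negative controls in every array, but Jag2 in 3 KO arrays and no WT array, which limits the reading of that difference. Without KO replicates 4 and 5, a setting chosen after seeing the data, that difference was 0.60 and did not pass (exact two-sided permutation test, adjusted p = 0.0714). With fewer arrays the smallest p this test can give is larger, so that miss cannot show that the difference went away.

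Dll1, a Delta-like ligand that crypt secretory progenitors carry, stood at 8.75, 6.87, 7.30, 7.56 and 6.67 in KO and at 7.79, 8.72, 8.60, 8.45 and 8.91 in WT. KO replicate 1 lay among the WT arrays, and the other KO arrays lay below all of them. KO arrays averaged 7.43 ± 0.82 (SD, n = 5) and WT arrays 8.49 ± 0.43 (SD, n = 5). Dll1 fell by 1.07 with a standard error of 0.35 (limma, adjusted p = 0.0440). Leaving out any array other than KO replicate 1 or WT replicate 1 ended this call (limma, adjusted p = 0.0678 to 0.107), while without KO replicate 1 the change was -1.40 (limma, adjusted p = 0.00155).

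Dll4, the Delta-like ligand that acts with Dll1 in keeping crypt stem cells, stood at 5.90, 5.82, 5.90, 8.11 and 6.79 in KO and at 7.45, 7.96, 8.39, 7.49 and 8.64 in WT. KO replicate 4 lay inside the WT range and the other KO arrays below it. Dll4 was above the 95th percentile of the negative controls in 1 KO array and 3 WT arrays, which limits the reading of its order among the KO arrays. KO arrays averaged 6.50 ± 0.98 (SD, n = 5) and WT arrays 7.98 ± 0.53 (SD, n = 5), a fall by 1.48 with a standard error of 0.43 (limma, adjusted p = 0.0228). Leaving out KO replicate 1, 2 or 3 or WT replicate 3 or 5 ended the call (limma, adjusted p = 0.0513 to 0.0588). Dll1 and Dll4 were high in different KO arrays, and their changes differed by 0.42, which did not pass (exact two-sided permutation test, adjusted p = 0.579). Without KO replicate 1, the KO array with the highest Dll1, that difference was -0.07 (exact two-sided permutation test, adjusted p = 0.857). Without KO replicates 4 and 5, the KO arrays with the highest Dll4, it was 1.26 (exact two-sided permutation test, adjusted p = 0.0429). That setting was chosen after seeing the data. Leaving out arrays with high Dll4 raises the difference by itself, so its pass decides nothing.

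Markers of secretory cells, which make Delta-like ligands in the crypt, were mostly lower in KO as well. Of 6 goblet cell markers 4 fell and 2 missed the threshold, and the median change was -2.004. Their mean level lay between 7.18 and 10.93 in KO and between 9.99 and 11.28 in WT. KO replicate 4, the KO array with the highest Dll4, had the highest goblet cell mean of that group (10.93), and KO replicate 5 came next in both (9.67). Dll1 did not share that order: its highest KO array, replicate 1, had the second lowest goblet cell mean of the KO arrays (7.88), and its lowest, replicate 5, the second highest. Atoh1, the secretory commitment factor, followed the same order at the top, with 6.09, 5.86, 5.79, 7.36 and 6.68 in KO against 7.39, 7.40, 7.48, 7.22 and 7.65 in WT. It fell by 1.07 (limma, adjusted p = 0.0103) and was above the 95th percentile of the negative controls in no KO array and in 2 WT arrays. KO replicate 1, where Dll1 was high, had the highest KO mean of 6 tuft cell markers (6.68), against 5.94 to 6.44 in the other KO arrays and 6.15 to 6.36 in WT, but the next highest tuft cell mean (6.44) was in KO replicate 5, where Dll1 was lowest; of these markers 1 rose and none fell. The one that rose was Dclk1, by 1.29, and leaving out KO replicate 4 or WT replicate 2 ended its call (limma, adjusted p = 0.0563 and 0.0542).

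Paneth and enteroendocrine marker levels were low in all 5 KO arrays. Of 6 Paneth cell markers 5 fell and 1, the protease Mmp7, rose by 3.05, with list means of 5.92 to 6.19 in KO and 11.10 to 11.58 in WT. All 5 measured enteroendocrine markers fell, with list means of 4.84 to 5.22 in KO and 7.94 to 8.42 in WT. The part of these cell types in the fall of Dll1 and Dll4 was not tested. In RNA from whole organoids, fewer cells of a type and less RNA per cell cannot be told apart.

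**Figure D3:**
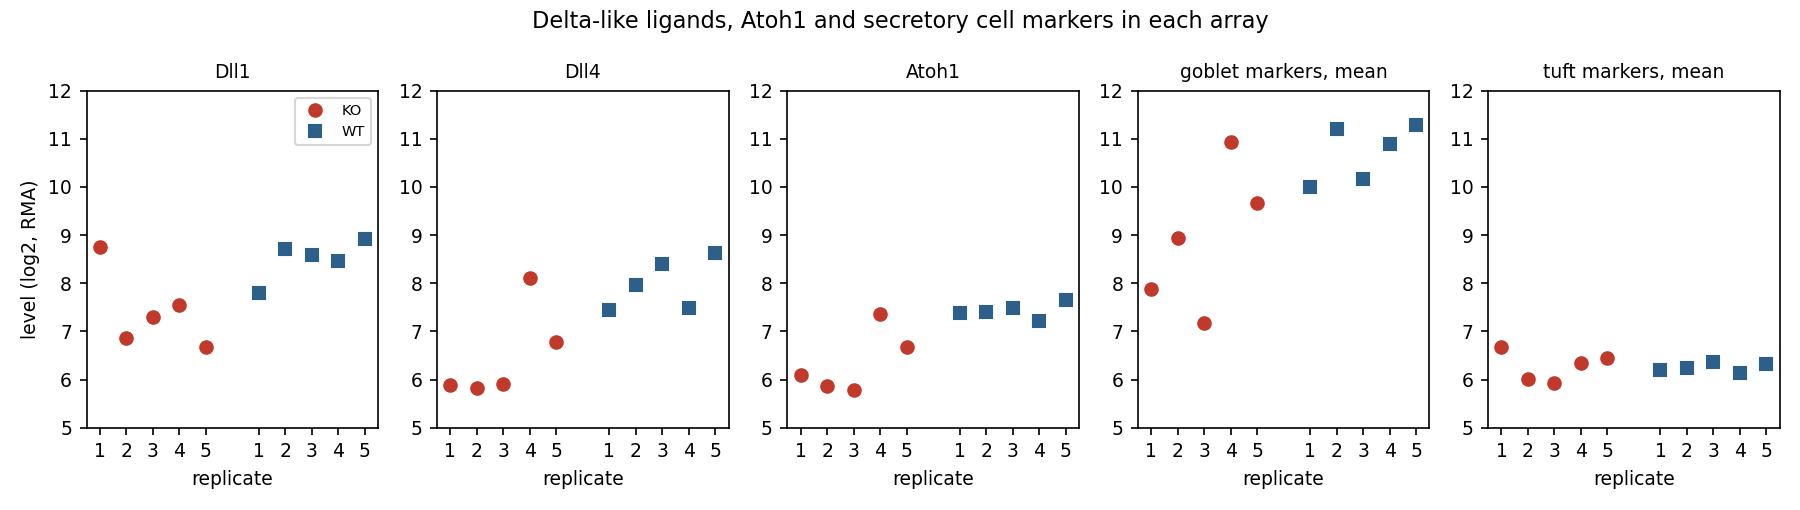
Level (log2) of Dll1, Dll4 and Atoh1 and mean level of the goblet and tuft cell marker lists in each array, KO as red circles and WT as blue squares, by replicate number. In KO, Dll4, Atoh1 and the goblet cell mean are all highest in replicate 4, while Dll1 and the tuft cell mean are highest in replicate 1.

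Maml2, a Mastermind coactivator that binds the Notch intracellular domain on RBPJ, had the largest change of the 10 genes. It stood at 7.89, 7.95, 7.72, 8.09 and 8.33 in KO and at 5.33, 5.08, 5.13, 4.95 and 5.11 in WT. A gap of 2.39 separated the lowest KO from the highest WT array. KO arrays averaged 7.995 ± 0.23 (SD, n = 5) and WT arrays 5.12 ± 0.14 (SD, n = 5), a rise of 2.88 (SE 0.13), equal to 7.34-fold (limma, adjusted p = 1.23e-08). Only 2.50% of all probe sets had a larger change in size. The WT level lay on average 0.39 above the negative control median of its array, which limits the reading of the fold. The 95% confidence interval of the rise ran from 2.60 to 3.15. KO replicate 5 was the highest and KO replicate 3 the lowest KO array for both Maml2 and Notch3.

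The target genes did not follow the receptors and the coactivator upward. Hes1, the repressor through which Notch blocks the secretory lineage, stood at 8.47, 8.53, 8.38, 8.38 and 8.45 in KO and at 8.92, 8.22, 8.84, 8.23 and 8.28 in WT. The KO arrays lay within 0.14 of each other and inside the WT range, where replicates 1 and 3 were high. The change was -0.05 with a 95% confidence interval from -0.39 to 0.28 (limma, adjusted p = 0.845), so a rise above 0.28 lies outside that interval. Nrarp, a target gene whose small ankyrin-repeat protein limits Notch signalling, stood at 5.74, 6.41, 5.82, 6.12 and 5.82 in KO and at 7.11, 7.10, 7.21, 6.95 and 7.21 in WT. The highest KO array lay 0.53 below the lowest WT array. Nrarp fell by 1.13 with a standard error of 0.14 (limma, adjusted p = 6.40e-05), and no array carried it above the 95th percentile of the negative controls. The Hes1 minus Nrarp difference within an array averaged 2.46 ± 0.26 (SD, n = 5) over KO arrays and 1.38 ± 0.32 (SD, n = 5) over WT arrays, so the 2 targets changed unequally by 1.08 (exact two-sided permutation test, p = 0.00794; adjusted p = 0.0159).

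Other genes of the pathway were taken from a list of 58, of which 55 were measured. Of these 15 rose, 4 fell and 36 missed the threshold, or 34.5% called beside 26.7% over all probe sets, and their median size of change was 0.28 beside 0.21. Against a change of 1.2-fold (limma's treat) 7 rose and 2 fell. All 8 other genes listed as targets missed the threshold (limma, with an unadjusted p under 0.05 for Hes3 and Hes6). Among them were Hes5 (-0.13), Hes6 (-0.26), Hey1 (0.13) and Heyl (0.14), genes of the HES and HEY families. Hes2, Hes3, Hey1, Hey2 and Heyl lay below the 95th percentile of the negative controls in every array, so their misses say little. The largest change in size of the 8 was -0.43, in Hes3, and without WT replicate 3 it was -0.56 and passed (limma, adjusted p = 0.0315). Among 6 nuclear activators 3 rose and none fell. Rbpj, the DNA-binding partner of the Notch intracellular domain, rose by 0.56 (limma, adjusted p = 0.0104), Maml1 by 0.55 (limma, adjusted p = 0.00499) and the acetyltransferase Kat2b by 0.41 (limma, adjusted p = 0.0452). Maml3, the remaining Mastermind gene, changed by 0.18 and did not pass. Kat2b kept its call without KO replicate 2 or 5 but not without any other array (limma, adjusted p = 0.0544 to 0.109), and none of these 3 passed against the 1.2-fold change (limma's treat, adjusted p = 0.102 to 0.537).

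Of 9 measured genes of the cleaving proteases 4 rose and none fell. Aph1b and Aph1c, near-identical subunits of γ-secretase, which makes the last cut in the receptor, rose by 0.99 and 0.81, and cross-hybridisation between them was not tested. Adam17, a metalloprotease that can shed the receptor's outer part, rose by 0.63, and Furin, which cuts the receptor on its way to the surface, by 0.37, though Furin did not pass against a 1.2-fold change (limma's treat, adjusted p = 0.546). Adam10, the main ligand-dependent sheddase, changed by 0.25 and did not pass (limma, adjusted p = 0.112). Among 5 enzymes that put sugars on the receptors 2 rose and 1 fell. Lfng, a Fringe enzyme whose sugars favour Delta-like over Jagged ligands, rose by 1.29 (limma, adjusted p = 0.0456), but the call was lost without any 1 of 6 arrays, KO replicates 3, 4 and 5 and WT replicates 1, 2 and 4 (limma, adjusted p = 0.0526 to 0.105). Without KO replicates 4 and 5 the change of Lfng was 0.78 (limma, adjusted p = 0.271). Poglut1, which starts a sugar chain on the receptor, rose by 1.15, and Pofut1 fell by 0.38 (limma's treat against 1.2-fold, adjusted p = 0.492), and the Fringe genes Mfng (-0.17) and Rfng (0.12) did not pass.

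The largest rise on the pathway list was that of Dtx3, among the regulators of turnover. Of 10 measured regulators 3 rose and 1 fell. Dtx3, of the Deltex family of ubiquitin ligases, stood at 6.93 to 8.71 in KO and 4.61 to 5.12 in WT and rose by 2.78 (limma, adjusted p = 3.80e-05). Its WT level lay on average 0.078 above the negative control median, which limits the reading of this size too. The 95% confidence interval of the rise ran from 2.09 to 3.46. The ligase Nedd4 rose by 1.31 and Numbl by 0.46, and Numbl did not pass once WT replicate 5 was left out (limma, adjusted p = 0.0501). Numb, an inhibitor of Notch that acts on its endocytosis, stood at 8.90 to 9.27 in KO and 9.64 to 10.76 in WT and fell by 1.01 (limma, adjusted p = 0.00142). Of 8 measured corepressors Kdm5a (0.62) and Ctbp2 (0.38) rose and Tle1 fell by 0.86. Leaving out KO replicate 3, 4 or 5 or WT replicate 1, 2 or 4 ended the call of Ctbp2 (limma, adjusted p = 0.0534 to 0.0795), and Kdm5a did not pass against a 1.2-fold change (limma's treat, adjusted p = 0.0608). Of 4 genes for ligand uptake Neurl1a rose by 0.92 and 3 did not pass. Dll3, a ligand that does not activate Notch in trans, was the 1 of 4 other ligands that fell, by 0.35 (limma, adjusted p = 0.0499), and it lost its call without any 1 of 7 arrays, KO replicates 1, 4 and 5 and WT replicates 2 to 5 (limma, adjusted p = 0.0638 to 0.121). Poglut1, Furin, Aph1c, Kat2b, Ctbp2, Nedd4, Numbl and Hes3 were singled out after their values were seen.

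**Figure D4:**
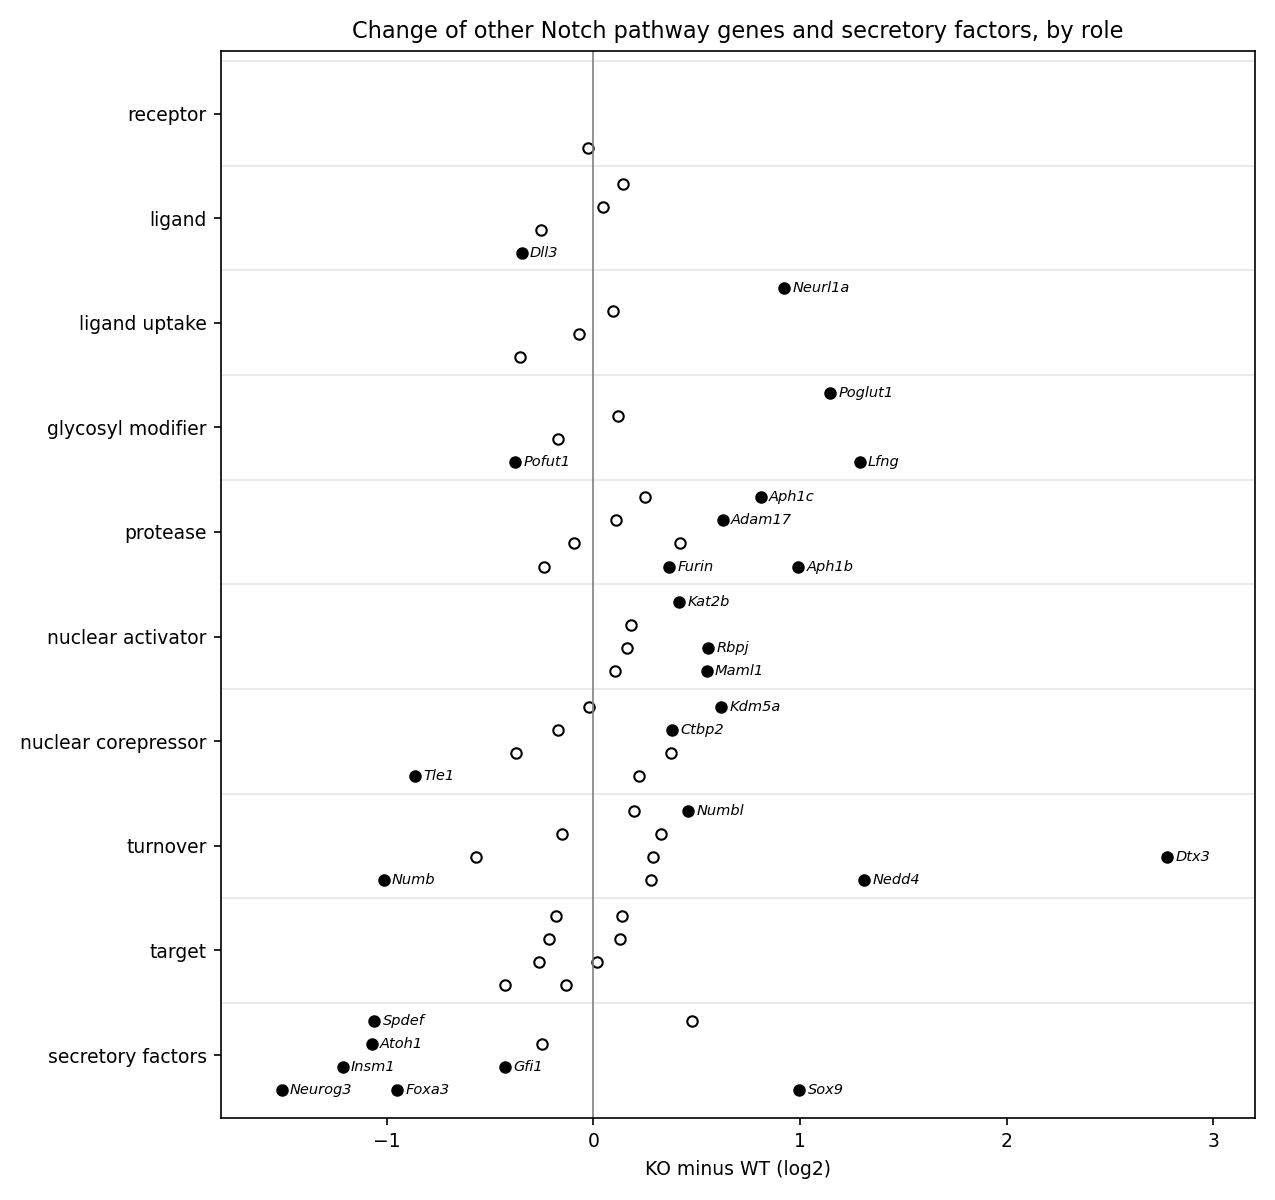
KO minus WT change (log2) of 55 other Notch pathway genes and 9 secretory lineage factors, 1 circle per gene, grouped by role; filled circles passed (limma, adjusted p under 0.05) and carry the gene's name, open circles did not. All 8 genes listed as targets are open, and the one farthest from 0 is Hes3 at -0.43. The filled nuclear activators and proteases lie to the right of 0, and 6 of 7 filled secretory factors lie to the left.

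Transcription factors of the secretory lineage, in which Atoh1 acts first, were mostly lower. Of 9 measured 6 fell, 1 rose and 2 did not pass. Neurog3, which commits cells to the endocrine fate, stood at 5.84 to 6.72 in KO and 6.84 to 8.48 in WT and fell by 1.51 (limma, adjusted p = 0.00266). Sox9, which crypt progenitors and Paneth cells carry, rose by 0.996 (limma, adjusted p = 0.0382), but lost its call without any 1 of 6 arrays, KO replicates 2 to 5 and WT replicates 1 and 2 (limma, adjusted p = 0.0539 to 0.0803). In KO replicate 1, where Dll1 lay inside its WT range, Atoh1 (6.09) was below all WT arrays. In KO replicate 4, where Dll4 lay inside its WT range, Atoh1 (7.36) lay inside its own WT range. Neurog3 was below all WT arrays in every KO array, KO replicate 4 (6.195) included. It was above the 95th percentile of the negative controls in no KO array and in 3 WT arrays.

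Most markers of cell types outside the epithelium in which Notch3, Jag1 or Dll4 are well known were dim in both groups, with exceptions. The endothelial markers Pecam1 and Cdh5 stood at 5.00 to 5.42 and 4.21 to 4.85 in KO and at 5.09 to 5.18 and 4.09 to 4.68 in WT, while Esam stood at 7.69 to 7.96 in KO and 7.78 to 8.06 in WT, above the 95th percentile of the negative controls in every array. Of 8 endothelial markers 1 rose, Flt1 by 0.84, and none fell, with list means of 5.10 to 5.42 in KO and 5.24 to 5.33 in WT. None of 8 pericyte and smooth muscle markers passed (limma; none at an unadjusted p under 0.05), with list means of 5.03 to 5.50 in KO and 5.03 to 5.27 in WT. Among them Cnn1, a smooth muscle gene, stood at 8.30 in KO replicate 5 against 4.76 to 5.29 in the other KO arrays and 4.90 to 5.18 in WT. KO replicate 5 was also the highest array for Notch3 and Maml2, and without it these rose by 0.78 and 2.79 (limma, adjusted p = 0.00205 and 4.49e-08). Of 5 fibroblast markers none rose and 1 fell, Lum by 0.39, with list means of 5.17 to 5.44 in KO and 5.25 to 5.48 in WT. Of 5 immune markers 2 rose, Itgam by 1.56 and Csf1r by 1.53, while the pan-leukocyte marker Ptprc stood at 5.49 ± 0.10 (SD, n = 5) over KO and 5.70 ± 0.21 (SD, n = 5) over WT arrays. The immune list means did not overlap, at 5.69 to 6.29 in KO and 5.13 to 5.41 in WT, and the highest was in KO replicate 1, the KO array with the highest Dll1. Of 4 nerve and glia markers 1 rose, S100b by 0.46, with list means of 5.30 to 5.51 in KO and 5.13 to 5.32 in WT. All 6 absorptive enterocyte markers fell, with list means of 5.27 to 5.48 in KO and 10.58 to 12.62 in WT. Flt1, Esam, Cnn1, Itgam, Csf1r, S100b, Lum, Cdx2, Vil1, Mmp7 and Dclk1 were singled out after their values were seen, and the part of such cells in the changes of Notch2, Notch3, Jag1, Maml2 and Dll1 was not tested.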

How the data were processed

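Total RNA of 10 organoid samples (100 ng each) was biotin-labelled with the GeneChip WT PLUS kit, per the labels' protocols. For each array the authors deposited log2 levels of its probe sets. RMA and limma are named in the submitters' processing notes, without versions. No build is given in the sources used here, nor whether RMA was run on all arrays at once. The platform annotation pairs 19572 of the 28846 probe sets with 1 gene symbol. Levels were used as deposited. KO and WT were compared with limma 3.58.1 (R 4.3.3) on all probe sets, with moderated variances and Benjamini-Hochberg adjustment over the 19572, at a threshold of 0.05. The probe set with the highest mean stood for its gene. Differences between 2 genes of one role were tested by exact permutation of arrays (scipy 1.17.1), adjusted over 6 pairs. Figures were drawn with matplotlib 3.10.9 in Python 3.11.15. The number of arrays limits the precision.

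The 10 genes, the pathway and marker lists and the tests were chosen with earlier results of these data known. Named besides the 10 were Nfkbia and Y-linked genes, the highest and lowest passing gene of each role and a set list of 17; a few genes of these lists are not reported here, and list counts are over the genes measured. Alternatives changed normalization, filter, variance model, weights, adjustment, probe set rule, threshold and arrays. The limma step was tested on simulated data of 19572 probe sets, which recovered 32% of the genes given a log2 change of 0.5, 70% of those given 1 and 98% of those given 2. A far smaller share of genes was changed there than the 26.7% of probe sets called in the data. The adjustment depends on that share, so these percentages do not give the power of the KO and WT comparison.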

Additional observations from a re-analysis of the deposited data

Results flagged for a closer look

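In groups of 5 arrays, a value was marked where its gap to the nearest other array, divided by the range of the group, was above Dixon's 95% critical value. Of 124 groups tested, over the 10 genes and most of the named pathway, marker and check genes, 8 were marked, where chance alone marks about 1 in 20, or 6.2. Some of the genes tested, Cnn1, Itgam and Kat2b among them, were singled out after their values were seen, so these counts do not compare fairly. Hes5 was lowest in KO replicate 3, at 7.67 against 7.87 to 7.89 in the other KO arrays, a ratio of 0.923. Hey1 was lowest in WT replicate 1, at 5.07 against 5.44 to 5.58 in the other WT arrays, a ratio of 0.732. Kat2b was lowest in WT replicate 3, at 5.79 against 6.23 to 6.34 in the other WT arrays, a ratio of 0.802. Cnn1 was highest in KO replicate 5, at 8.30 against 4.76 to 5.29 in the other KO arrays, a ratio of 0.850. Itgam was highest in KO replicate 1, at 8.37 against 6.14 to 6.64, a ratio of 0.773. Pecam1 was lowest in WT replicate 4, at 5.09 against 5.15 to 5.18, a ratio of 0.748. Nfkbia was highest in WT replicate 5, at 9.85 against 8.95 to 9.19, a ratio of 0.730. Kdm5d was lowest in WT replicate 4, at 4.92 against 6.26 to 6.66, a ratio of 0.770. None of the 10 genes was marked in either group, KO replicate 1 for Dll1 and KO replicate 4 for Dll4 included.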

How the results depend on the processing

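Across 21 alternatives, 6 of the 10 genes kept direction and side of the threshold in all: Notch1, Notch2, Notch3, Jag1, Maml2 and Nrarp. Hes1, never past the threshold, turned to 0.013 with array weights and lay between -0.12 and 0.053 with 1 array left out. Notch4, also never past it, lay between -0.10 and 0.041 with 1 array left out and was 0.047 without KO replicates 4 and 5. Of the markers that were not called, Pecam1 turned to -0.0028 with 75th percentile centring and -0.022 without KO replicates 4 and 5, and Cdh5 to -0.015 with array weights; with 1 array left out Pecam1 lay between -0.032 and 0.074, Cdh5 between -0.038 and 0.13 and Cnn1 between -0.043 (without KO replicate 5) and 0.84. Against a 1.2-fold change (limma's treat), 3034 probe sets passed, 1772 higher and 1262 lower; 5 of the 10 genes passed, 1 of them lower, and 9 other pathway genes, 7 higher and 2 lower. That setting ended the calls of Jag2 (0.75), Dll1 (-1.07) and Dll4 (-1.48). Dll1 also lost its call when adjusted over all probe sets (-1.07) and without KO replicates 4 and 5 (-0.86). With 1 array left out, Dll1 ranged from -1.40 to -0.88 and Dll4 from -1.88 to -1.31, and the count of the 10 genes that fell from 1 to 3; it was 1 without KO replicate 2, KO replicate 3, WT replicate 3 or WT replicate 5. With array weights 7 other pathway genes fell. Notch2 against Notch3 ranged from 0.42 to 0.71 with 1 array left out and passed with cyclic loess (0.54) and without KO replicates 4 and 5 (0.79). Without those, Jag1 against Jag2 was 0.60 and did not pass with the fewer arrays left. Dll1 against Dll4 was then 1.26 and passed, though the KO arrays left out were those with the highest Dll4. With 1 array left out it ranged from -0.07 to 0.79. The cause of these shifts was not tested.

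Whether the label numbers pair the arrays could not be decided. The correlation of same-numbered arrays' deviations from their group means, across probe sets, ran from -0.066 to 0.36. KO replicates 3 (0.36) and 4 (0.184) correlated best with the WT array of their own number, and the other KO arrays did not. With the number as a replicate block, 4913 probe sets passed and Dll1 (-1.07) did not (limma, adjusted p = 0.107). For the permutation tests of 2 genes no block was run. Of the called genes with a printed change, Notch3, Nrarp, Dll3, Neurl1a, Aph1c, Kat2b, Flt1, S100b, Lum and Kdm5d lay below the 95th percentile of the negative controls in every array, and Lum below their median in both groups, which limits the reading of their sizes. 2 alternatives, control probe sets left out and KO replicates 4 and 5 left out, were chosen after seeing the data.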
